A study of Mus musculus with 38 samples.

Results

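CD115, the product of Csf1r, is the receptor for M-CSF, the growth factor that monocytes, macrophages and their committed progenitors need to survive and multiply. Marrow cells that carry it and lack the antigens of mature lineages hold progenitors that can form monocytes, macrophages and, when RANK ligand is added, bone-resorbing osteoclasts. G-CSF drives the output of neutrophils and releases cells from the marrow, and zoledronic acid (ZA), a bisphosphonate, is taken up from bone by osteoclasts and disables them.

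The transcript content of sorted CD115+ marrow precursors was compared with that of whole marrow in the libraries of sequencing run 1. The members were 8 precursor and 3 whole marrow libraries, which are 11 of the 29 libraries of the table that holds the precursors and 11 of the 38 samples of the series, and they were chosen by their labels. All mice were female C57BL/6 mice aged 6 to 7 weeks. The precursor libraries came from untreated mice (1 library), mice given ZA at 100 µg/kg (1 library), mice given recombinant human G-CSF at 50 µg/kg daily for 3 days (3 libraries) and mice given both, with G-CSF begun 2 days after ZA (3 libraries, called combined below). The marrow libraries came from 1 untreated, 1 G-CSF and 1 ZA sample, and combined precursors therefore had no marrow partner in this run. The sorted cells had been depleted of cells with lineage antigens and were then gated as alive, positive for CD115 and negative for a cocktail against TER119, CD45R, CD11b, CD3 and the Ly-6G/Ly-6C pair. The submitters call them osteoclast precursors. Replicate numbers are given without saying whether a number stands for 1 animal or for several pooled, and the p-values below therefore reflect only how far such samples spread, which may be technical. Marrow has 1 library a treatment, so no spread between marrow replicates enters these p-values.

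Total estimated counts (M for mega) were 21.1 to 33.2 M in precursor and 6.83 to 16.2 M in marrow libraries. Globin genes took 28.7 to 40.3% of the marrow TPM (a transcript level per length that sums to the same total in each library) and 0.0340 to 0.999% of the precursor TPM, highest in combined 3. Small RNA genes took 6.46 to 12.3% of the marrow TPM and 16.9 to 42.5% of the precursor TPM, highest in combined 1. Whether marrow and precursor libraries were prepared side by side is not stated, so cell type cannot be told apart from depth or preparation. Fewer cells of a type and less RNA per cell likewise cannot be told apart in these bulk samples. In run 2, which is not used below except as an alternative, 2 of the 3 libraries labelled marrow were closer to run 1 precursors than to run 1 marrow, and 6 of the 15 labelled precursors were closer to run 1 marrow. Within run 1 every library lay closer to its own kind. Pearson's r of log2(TPM + 1) over 12122 genes was 0.910 to 0.939 between precursor libraries (28 pairs), 0.856 to 0.894 between marrow libraries (3 pairs) and 0.733 to 0.777 between a precursor and a marrow library (24 pairs); these are given as a description, since libraries share genes and processing.

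Levels of single genes are given below as normalised CPM, which are counts as a share of the library total scaled by TMM factors. These are the values the edgeR quasi-likelihood test compared, with treatment as a term. In that fit the combined libraries, without a marrow partner, inform only the spread. The fitted difference between precursors and marrow rests on the untreated, ZA and G-CSF libraries. Log2 fold changes are precursors over marrow with their standard error (SE), and p-values are adjusted by Benjamini-Hochberg over the 18344 genes tested. Of these, 3933 (21.4%) were higher and 4268 (23.3%) lower in precursors at adjusted p under 0.05, 44.7% in all, and the median log2 fold change was 0.06. Large falls outnumbered large rises: 1.35% of genes were called at least 8-fold higher and 8.90% at least 8-fold lower. All 8 precursor libraries lay above all 3 marrow libraries for 19.2% of genes and below them for 20.7%. TPM gave another centre, with a median of 0.47 on log2(TPM + 1) and 8873 genes higher against 2172 lower by limma, and 1156 of the called genes had the opposite sign there. The median was 0.79 on log2(TPM + 0.1). On log2(TPM + 1) some genes moved by more than the median: Ccl9 went from 1.61 to 2.46, and the median of the cell cycle list from -0.38 to 0.49. Changes smaller than these shifts can therefore depend on the scale, and the named genes that turned sign are given below. A group of genes given below is compared with these shares of all genes only as a description.

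The 6 genes given as markers of the sorted cells were all higher in precursors, with a median log2 fold change of 2.50, and in each of them all 8 precursor libraries lay above all 3 marrow libraries. Csf1r, the gene of the sorted receptor, had 404.5 to 473 CPM (median 422) in precursors and 170, 94.5 and 140 CPM in untreated, G-CSF and ZA marrow. It was thus lowest in the marrow of G-CSF mice and close to even among precursors of every treatment. Its log2 fold change was 1.78 ± 0.16 (SE; adjusted p = 2e-05), which is 3.42-fold. Ccr2 (ENSMUSG00000049103, chromosome 9, 124101950 to 124113557, plus strand; GENCODE vM21 on GRCm38), the chemokine receptor by which inflammatory monocytes leave the marrow, had 791 to 1018 CPM (median 885) against 238, 135 and 140 CPM. The gap between its lowest precursor library and its highest marrow library was more than 3-fold, and the fitted difference was 2.49 ± 0.17 (adjusted p = 4.1e-06). Irf8 (ENSMUSG00000041515, chromosome 8, 120736358 to 120756694, plus strand), the transcription factor that directs progenitors to the monocyte and dendritic fates, had 1072 to 1384 CPM (median 1158) against 368, 104 and 186 CPM. Marrow varied more than precursors here, and the log2 fold change was 2.69 ± 0.30 (adjusted p = 9.9e-05).

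F13a1 (ENSMUSG00000039109, chromosome 13, 36867178 to 37050244, minus strand), which encodes the coagulation factor XIII A chain carried by monocytes, had 1670 to 2111 CPM (median 1848) in precursors and 346, 233 and 238 CPM in marrow. It had the largest log2 fold change of the 6 markers, 2.78 ± 0.14 (adjusted p = 8.2e-07). Cd34 (ENSMUSG00000016494, chromosome 1, 194938819 to 194961279, plus strand), a sialomucin of stem and progenitor cells, had 113 to 167 CPM (median 152) against 32.6, 24.2 and 25.2 CPM. G-CSF precursor 1 stood below the other precursors in Cd34 and still above all marrow libraries, and the log2 fold change was 2.52 ± 0.15 (adjusted p = 1.6e-06). Flt3 (ENSMUSG00000042817, chromosome 5, 147330741 to 147400489, minus strand), the receptor tyrosine kinase of multipotent and dendritic progenitors, had 38.9 to 54.3 CPM (median 44.7) against 18.4, 13.7 and 15.4 CPM, a log2 fold change of 1.54 ± 0.15 (adjusted p = 3.3e-05). All 6 were also higher when the difference was read without G-CSF (untreated and ZA libraries, where 16.2% of all genes were higher) and under G-CSF (17.2%), with medians of 2.195 and 2.685. The summed TPM of the 6 genes was 715 to 1200 (median 1061) in precursors and 153, 82.8 and 82.6 in marrow. Csf1r encodes the antigen of the gate, and the 6 genes were given beforehand as markers. Their rise therefore describes the sort and is no separate test of what the cells are.

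**Figure D1:**
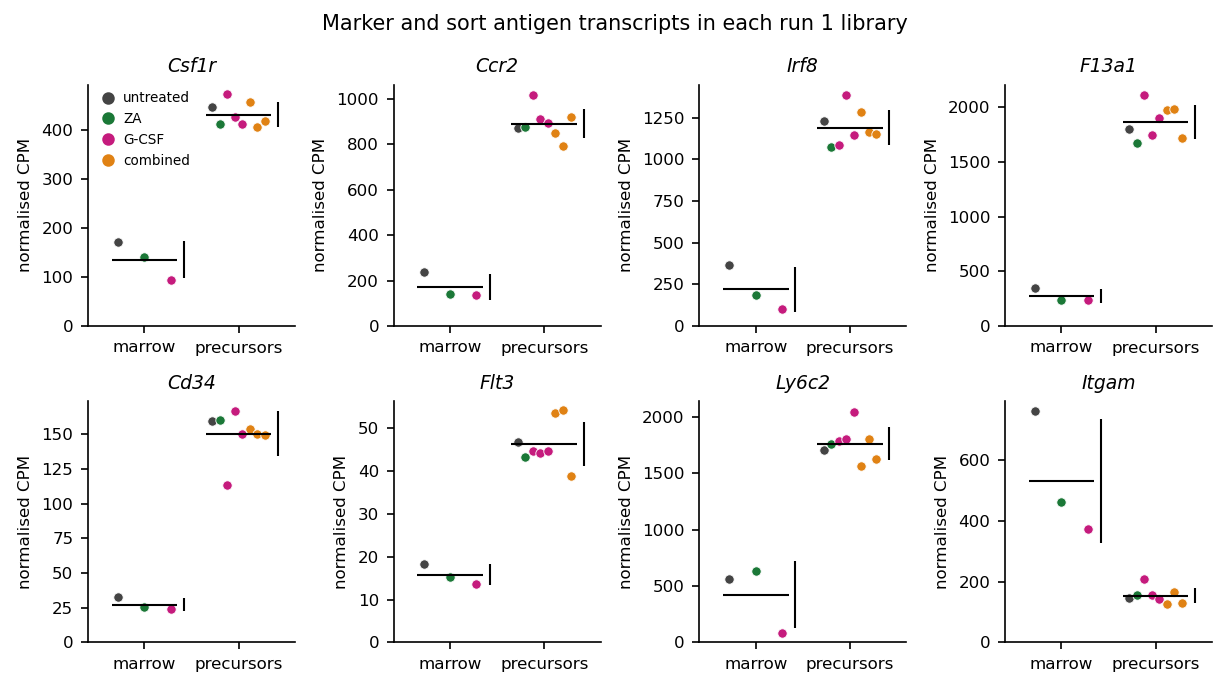
Normalised CPM (vertical axis, from 0) of the 6 marker genes and of 2 genes whose products the lineage cocktail binds, Ly6c2 and Itgam, in each run 1 library. Points are libraries coloured by treatment, the horizontal line is the mean of the 3 marrow or 8 precursor libraries, and the vertical bar is 1 SD to each side; every precursor point lies above every marrow point except for Itgam, where every precursor point lies below.

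Promoter sequence was examined for the markers because a shared binding motif of PU.1, the product of Spi1 and the lead factor of the myeloid lineage, is textbook background for such genes. The core GAGGAA of the PU.1 box, or TTCCTC on the other strand, was searched in the 250 bases before each start in RefSeq (GRCm38.p6) for 5 marker genes with 7 promoters; Csf1r was not examined. The core was found in 1 of the 7, the first start of F13a1, on the same strand and 66 to 61 bases before the start. Over all promoters of that length 7639 of 32851 (23.3%) held it. The F13a1 promoter (chr13:37050245-37050494, minus strand) is shown with the core in capitals, beside the Irf8 promoter (chr8:120736108-120736357, plus strand), which had none.
F13a1: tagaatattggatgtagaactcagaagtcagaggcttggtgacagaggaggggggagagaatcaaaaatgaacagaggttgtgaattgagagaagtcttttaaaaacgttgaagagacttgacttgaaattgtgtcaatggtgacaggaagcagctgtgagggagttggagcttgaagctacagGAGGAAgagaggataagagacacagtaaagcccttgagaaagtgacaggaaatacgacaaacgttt
Irf8: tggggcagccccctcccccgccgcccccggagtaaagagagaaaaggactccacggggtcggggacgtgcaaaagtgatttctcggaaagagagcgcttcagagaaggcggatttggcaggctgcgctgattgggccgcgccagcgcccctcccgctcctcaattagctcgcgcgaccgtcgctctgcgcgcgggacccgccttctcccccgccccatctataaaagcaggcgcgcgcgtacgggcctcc
These matches are a description of letters, not of bound sites, and the absence of a match in this window says nothing on the factor.

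The antigens of the lineage cocktail were next read as transcripts. Of the 10 genes of the sort (Csf1r and 9 genes behind the 5 cocktail antigens), 2 were higher and 7 lower in precursors, with a median log2 fold change of -3.76. Ly6g, the neutrophil antigen, had 0.625 to 5.39 CPM (median 0.946) in precursors and 146, 356 and 196 CPM in marrow, a log2 fold change of -7.84 ± 0.73 (adjusted p = 6.5e-05), with combined 3 highest. The T cell receptor chains Cd3e and Cd3g were nearly absent, with 2 counts each in all 8 precursor libraries together. The marrow to precursor ratio of Cd3g was 485 (95% exact Poisson interval 134 to 4007, counting error only). Cd3e was also at 0 in G-CSF marrow, and its call was lost without the untreated marrow library.

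CD11b and Ly-6C did not follow that pattern. Itgam, which encodes CD11b, the integrin of neutrophils and monocytes, had 128 to 208 CPM (median 152) in precursors and 764, 375 and 462 CPM in marrow. Precursors were below all marrow libraries, yet retained well over 100 CPM, and the log2 fold change was -1.63 ± 0.22 (adjusted p = 0.0003). Ly6c2 (ENSMUSG00000022584, chromosome 15, 75108158 to 75111970, minus strand), which encodes the Ly-6C of classical monocytes, was higher in precursors, with 1562 to 2044 CPM (median 1776) against 561, 80.0 and 633 CPM. By TPM it was the 7th most abundant of the protein-coding genes ranked in precursors (mitochondrial, ribosomal protein, histone, Gm and Rik genes and those with symbols beginning H2- left out). Its log2 fold change was 2.58 ± 0.60 (adjusted p = 0.0087). It was larger under G-CSF (4.56) than without it (1.54), and the difference of 3.01 passed the test. That difference rests on 1 G-CSF marrow library, so treatment cannot be told apart from that sample. The same holds for each difference with G-CSF given below. Ly6c1 is the near-identical neighbour of Ly6c2 and is more typical of endothelium and lymphocytes. It had 2.40 to 4.26 CPM in precursors and 4.44, 67.8 and 3.97 CPM in marrow. Its call (-2.26 ± 0.73, adjusted p = 0.033) came from the G-CSF marrow library and was lost without it, and how reads were split between the 2 copies is not known. Ptprc, whose CD45R isoform the cocktail binds, did not pass the test (-0.29 ± 0.13, adjusted p = 0.1) and its isoforms are not separated in gene counts. Antibodies bind protein, which these libraries do not measure.

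Among 46 genes of surface receptors, 26 were higher, 7 lower and 13 not called, with a median log2 fold change of 0.715. Over all 18344 genes 21.4% were higher and 23.3% lower. On log2(TPM + 1) 36 of the list were higher and 5 lower, beside 8873 and 2172 of all genes. The largest rise of the list was that of Il6st, which encodes gp130, the signal chain shared by the receptors of the IL6 family. It had 451 to 681 CPM (median 532) in precursors and 61.3, 40.7 and 36.9 CPM in marrow, and was 11.2-fold higher, a log2 fold change of 3.48 ± 0.18 (adjusted p = 7.8e-07). Its partner Il6ra, the ligand-binding chain, had 290 to 366 CPM against 115, 63.0 and 64.2 CPM (2.03 ± 0.18, adjusted p = 2.4e-05). Both chains of the IL6 receptor were thus above marrow in all 8 libraries. The GM-CSF receptor chain Csf2ra rose by 1.54 ± 0.17 (283 to 353 CPM against 105, 85.9 and 160), the IL3 receptor chain Il3ra by 1.53 ± 0.17 and their common chain Csf2rb by 0.84 ± 0.12 (adjusted p = 6.8e-05, 7e-05 and 0.00035). Cd93, a C-type lectin of early progenitors and monocytes, rose by 1.66 ± 0.11 and the adhesion protein Emb by 1.96 ± 0.11 (634 to 708 CPM against 201, 152 and 170).

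Cx3cr1, the fractalkine receptor of monocytes and of macrophage and dendritic progenitors, had 118 to 173 CPM (median 145) against 57.1, 10.6 and 31.1 CPM. It rose by 2.56 ± 0.42 (adjusted p = 0.0011), more under G-CSF than without it (difference 2.08, resting on 1 G-CSF marrow library). Tnfrsf11a, which encodes RANK, the receptor through which RANK ligand starts osteoclast formation, was detected at 3.77 to 8.55 CPM (median 4.93) against 2.11, 1.95 and 0.863 CPM. Its levels were low in both kinds of library, and its call (1.68 ± 0.43, adjusted p = 0.011) was lost without either the ZA marrow or the ZA precursor library. Kit, the stem cell factor receptor, did not pass the test and overlapped between the groups, with 34.0 to 65.5 CPM in precursors and 65.3, 42.8 and 55.6 CPM in marrow (0.04 ± 0.19, adjusted p = 0.89). The G-CSF receptor gene Csf3r had 114 to 153 CPM (median 126) against 262, 212 and 319 CPM, a log2 fold change of -1.01 ± 0.15 (adjusted p = 0.00048); on the TPM scale its groups overlapped and it was not called. Cxcr2, the receptor that draws mature neutrophils to chemokines, had 3.19 to 7.52 CPM (median 4.37) against 238, 228 and 246 CPM (-5.59 ± 0.25, adjusted p = 3.8e-07). Cxcr4, which holds cells in the marrow through Cxcl12, rose by 0.51 ± 0.12 (adjusted p = 0.0083), and this call was lost without the G-CSF marrow library.

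**Figure D2:**
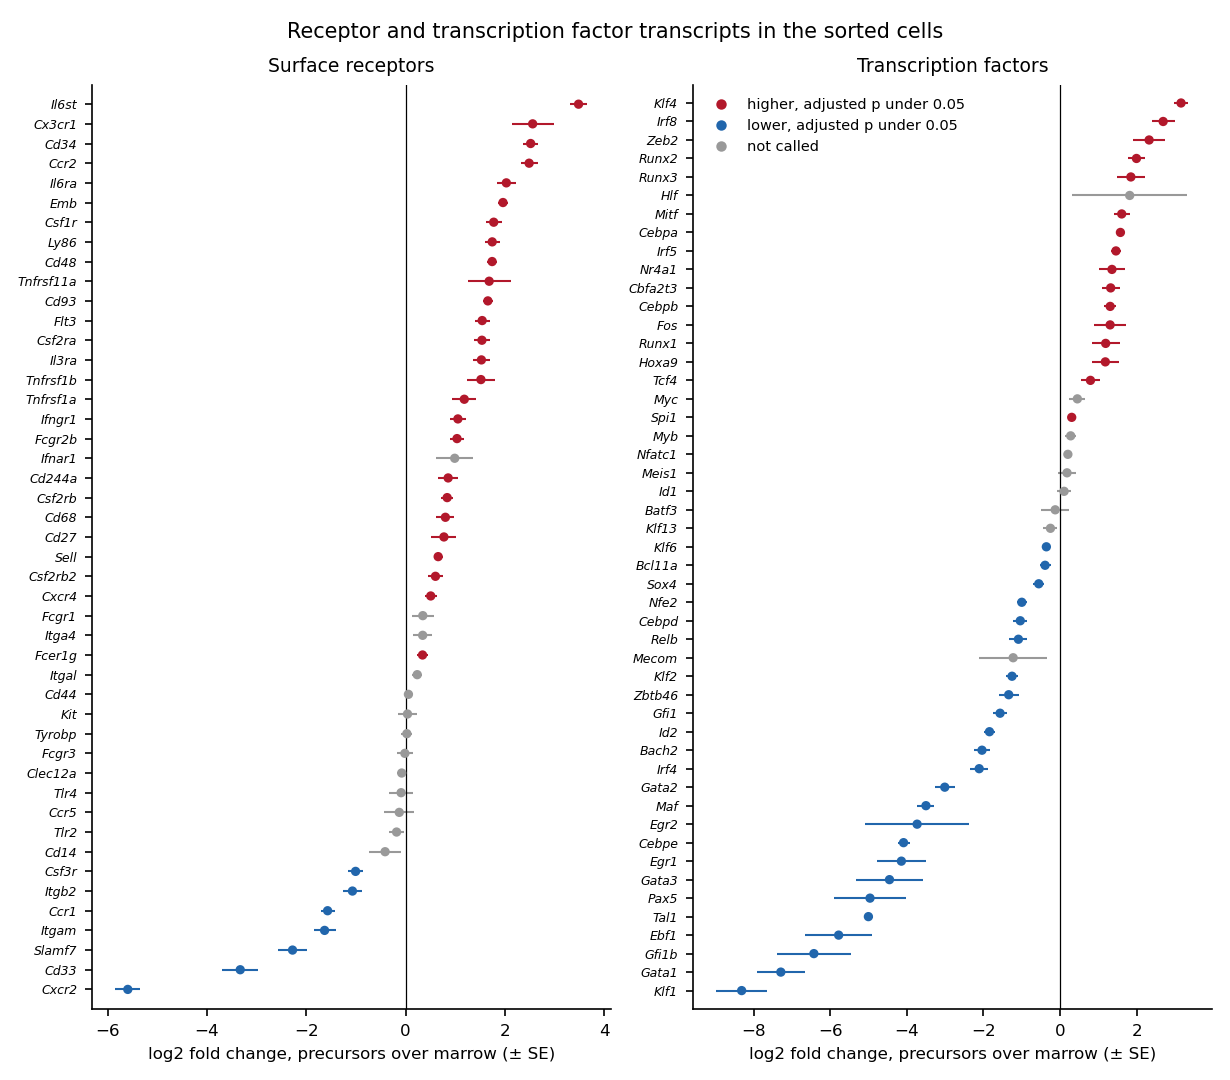
Log2 fold change of precursors over marrow (horizontal axis, with bars of 1 SE) for genes of the surface receptor and transcription factor lists. Red points were higher, blue points lower and grey points not called at adjusted p under 0.05; Il6st and Klf4 lead the higher genes, and Cxcr2 and Klf1 the lower ones.

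The transcription factor list held 50 genes, of which 16 were higher, 25 lower and 9 not called (median -0.38). On log2(TPM + 1) 22 were higher and 15 lower, with a median of 0.41. All 18344 genes gave 8873 higher, 2172 lower and a median of 0.47 on that scale, so the turn went with the shift of all genes. Klf4, a factor of monocyte differentiation, had 274 to 364 CPM (median 298) in precursors and 48.0, 27.6 and 32.1 CPM in marrow. Every precursor library was more than 5-fold above the highest marrow library, and the log2 fold change was 3.15 ± 0.19 (adjusted p = 2e-06). Zeb2, a repressor that keeps the monocyte and dendritic programmes, had 338 to 710 CPM (median 469) against 185, 85.2 and 48.1 CPM (2.32 ± 0.42, adjusted p = 0.002). Cebpa, the factor that opens the granulocyte-monocyte programme, had 156 to 194 CPM (median 170) against 63.8, 53.7 and 68.0 CPM (1.57 ± 0.09, adjusted p = 1.4e-06). Its relative Cebpb, used in monocytes and in emergency output, rose by 1.31 ± 0.15, and Irf5, which works downstream of Toll-like receptors, by 1.46 ± 0.14. Spi1 differed little, with 303 to 340 CPM against 255, 266 and 265 CPM (0.30 ± 0.07, adjusted p = 0.0082). Its groups did not overlap, but the change is smaller than the shift between the scales. Myc and Myb did not pass the test.

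Klf1 and Gata1, the factors of the erythroid programme, were at 0.230 to 3.65 CPM and 0.296 to 2.61 CPM in precursors, whereas marrow held 210, 317 and 345 CPM of Klf1 and 116, 184 and 184 CPM of Gata1. The log2 fold changes were -8.31 ± 0.66 and -7.29 ± 0.63. Cebpe, which carries granulocyte precursors past the promyelocyte, had 6.35 to 11.3 CPM (median 7.75) against 138, 128 and 178 CPM (-4.09 ± 0.16, adjusted p = 1.4e-07). Gfi1, the repressor that favours neutrophils over monocytes, had 8.46 to 14.3 CPM against 28.1, 40.3 and 32.3 CPM (-1.57 ± 0.19, adjusted p = 0.00014). The B cell factor Pax5 was lower as well (-4.96 ± 0.93, adjusted p = 0.0029), but it ranged from 0.190 to 32.1 CPM among precursors, with ZA 3 highest.

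Of 47 genes of secreted products tested (Cxcl2 was not tested), 16 were higher, 21 lower and 10 not called, with a median log2 fold change of -0.63. Fn1, which encodes fibronectin, a matrix protein that classical monocytes express, had 980 to 1528 CPM (median 1063) against 301, 120 and 259 CPM (2.46 ± 0.30, adjusted p = 0.00018). The CC chemokine gene Ccl9 had 208 to 262 CPM against 97.9, 60.3 and 76.6 CPM, a rise of 1.61 ± 0.16 (adjusted p = 4.1e-05). Tgfb1 rose by 1.02 ± 0.11 (311 to 445 CPM against 147, 215 and 216), Lgals1 (galectin-1) by 1.75 ± 0.09 and Cst3 (cystatin C, a protease inhibitor) by 1.05 ± 0.08. These genes were above marrow in all 8 libraries. On log2(TPM + 1) the list had 20 higher and 16 lower, with a median of 0.045. All 18344 genes gave 8873 higher, 2172 lower and a median of 0.47 on that scale. The lower genes of the list included products best known from niche cells, macrophages and neutrophils. The niche chemokine Cxcl12 had 0.361 to 2.48 CPM (median 1.00) in precursors and 124, 412 and 93.4 CPM in marrow (-7.81 ± 0.71, adjusted p = 5.8e-05). Il1b, the inflammatory cytokine, had 0.603 to 2.30 CPM against 20.3, 41.8 and 60.0 CPM (-4.93 ± 0.39, adjusted p = 1.1e-05). Mmp9, the gelatinase of neutrophil granules and osteoclasts, was lower by more than 8 log2 units (-8.11 ± 0.67). Chil3, a chitinase-like protein of neutrophils and monocytes, was 3.99-fold lower over all libraries (adjusted p = 0.023), a call lost without any 1 of the 4 untreated and ZA libraries and on the TPM scale.

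For the developmental stage of the cells, lists of stem and multipotent, granulocyte-monocyte progenitor and monocyte genes were read. Of 26 monocyte genes, 19 were higher, 2 lower and 5 not called (median 1.55), and 17 were higher without G-CSF and 21 under G-CSF. Ms4a6c, a membrane protein of the MS4A family used as a monocyte marker, had 558 to 685 CPM (median 608) in precursors and 147, 140 and 90.1 CPM in marrow. It lay above marrow in all 8 libraries, with a log2 fold change of 2.27 ± 0.12 (adjusted p = 9.9e-07). Spn (CD43) rose by 0.92 ± 0.09 (adjusted p = 3.2e-05). S100a4, a calcium-binding protein of motile cells, rose by 1.92 ± 0.27. Cd300e, an activating receptor of non-classical monocytes, rose by 2.24 ± 0.54 (7.26 to 9.84 CPM against 4.65, 0.451 and 2.24). Both differences were larger under G-CSF (by 1.32 and 2.92), where they rest on 1 marrow library. Treml4, another gene of non-classical monocytes, overlapped between the groups (9.62 to 14.9 CPM against 9.94, 7.51 and 12.8), and Fcgr4 was lower (-0.85 ± 0.28, adjusted p = 0.032), though its sign turned on the TPM scale. The summed TPM of the monocyte list was 3792 to 7622 (median 6414) in precursors against 1368, 910 and 1077 in marrow.

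Of 20 genes of granulocyte-monocyte progenitors, 10 were higher, 4 lower and 6 not called (median 0.40). On log2(TPM + 1) 16 were higher and 2 lower, where 8873 of all 18344 genes were higher and 2172 lower. Plac8, a cytosolic protein of progenitors and monocytes, had 763 to 931 CPM (median 876) against 425, 368 and 370 CPM (1.17 ± 0.10, adjusted p = 2e-05). Cd63, the tetraspanin of azurophil granules and lysosomes, had 8.93 to 14.1 CPM against 219, 239 and 278 CPM (-4.41 ± 0.16, adjusted p = 1.1e-07), the largest fall of that list. Of the genes of stem and multipotent cells 3 were higher, 9 lower and 7 not called of 19 tested (Hoxb5 was not tested; median -1.54), and on log2(TPM + 1) 5 were higher and 7 lower (median -0.09). The 3 higher genes were Cd34, Flt3 and Hoxa9, a homeobox gene of early progenitors (1.18 ± 0.34, adjusted p = 0.02, lost without the untreated marrow or precursor library). Slamf1, the CD150 antigen of stem cells, had 0.0680 to 0.904 CPM (median 0.244) against 3.81, 24.4 and 2.42 CPM (-5.06 ± 0.81, adjusted p = 0.0008). Myct1, a stem cell and endothelial gene, had a log2 fold change of -5.64 ± 0.80. The summed TPM of the megakaryocyte list was 1321 in G-CSF marrow against 161 and 90.7 in untreated and ZA marrow, and that of the endothelial list 135 against 37.6 and 36.9; their part in these falls was not tested.

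**Figure D3:**
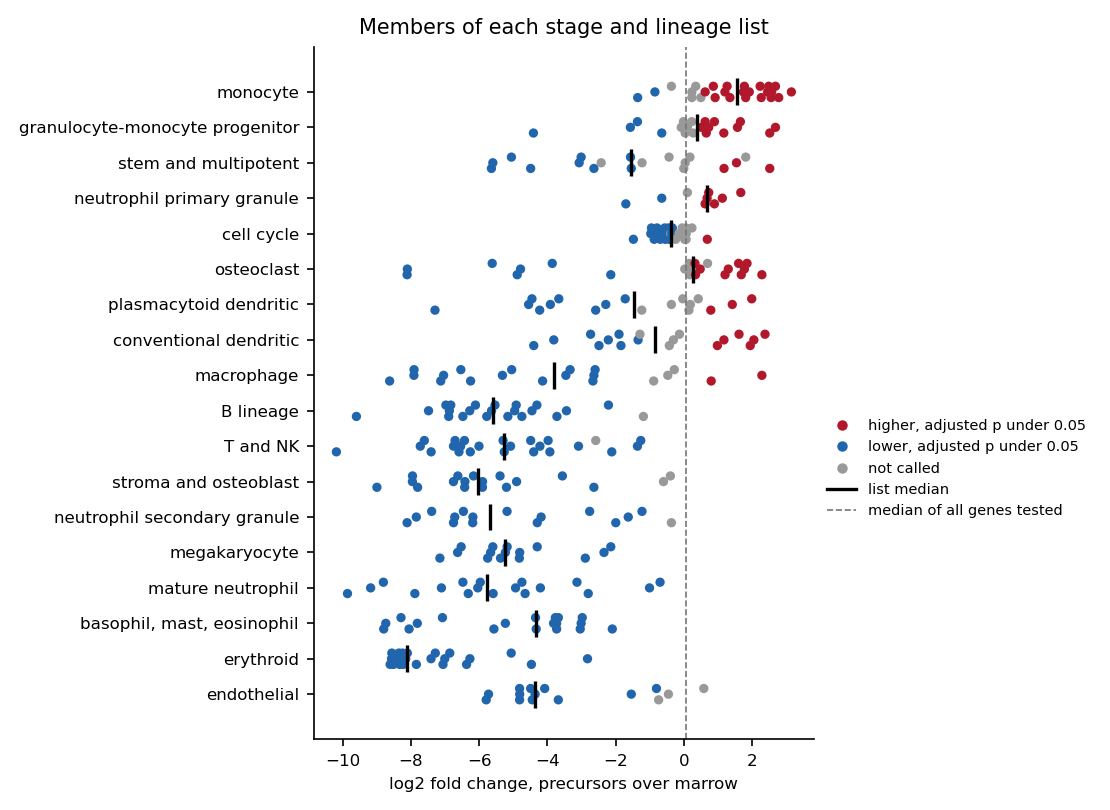
Log2 fold change of precursors over marrow for each tested member of the gene lists shown (1 point a gene, in rows by list). The black bar is the median of the list and the dashed line the median of all 18344 genes tested, 0.06. The monocyte list lies to the right, with a median of 1.55, and the erythroid list farthest to the left, with a median of -8.11.

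Primary granule proteins, which promyelocytes and granulocyte-monocyte progenitors make, were read next. Of 9 such genes tested (Azu1 was not in the table), 6 were higher, 2 lower and 1 not called (median 0.68). Without G-CSF 6 were higher and 1 lower, where 16.2% of all genes were higher and 16.6% lower. Under G-CSF 2 were higher and 2 lower, where 17.2% of all genes were higher and 20.0% lower. Mpo, the myeloperoxidase gene, had 2472 to 3438 CPM (median 3054) in precursors and 1146, 2555 and 1823 CPM in untreated, G-CSF and ZA marrow. The G-CSF marrow library thus lay inside the precursor range. Its log2 fold change was 1.24 without G-CSF (adjusted p = 0.0007) and 0.13 under it, but the difference between them did not pass the test (adjusted p = 0.063), and the call over all libraries (0.73 ± 0.22, adjusted p = 0.023) was lost without any 1 of the untreated and ZA libraries. Prtn3, proteinase 3, showed a difference that passed: 1.14 without G-CSF and 0.01 under it (difference -1.13, resting on 1 G-CSF marrow library). Prtn3 had 820 to 1095 CPM in precursors against 365, 881 and 553 CPM. Its call over all libraries (0.62 ± 0.21, adjusted p = 0.035) was lost in the same way. Ctsg, cathepsin G, rose by 0.90 ± 0.19 (adjusted p = 0.004). The rise was 1.36 without G-CSF and 0.34, not called, under it (difference -1.02, resting on the same marrow library). Elane, the neutrophil elastase gene, overlapped, with 622 to 910 CPM against 452, 870 and 681 CPM (0.10 ± 0.17, adjusted p = 0.67).

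Later neutrophil genes were lower in precursors. Of 16 secondary granule genes 15 were lower (median -5.68) and of 18 mature neutrophil genes all 18 tested were (median -5.78). Ltf, the lactoferrin of secondary granules, had 29.7 to 108 CPM (median 44.3) in precursors and 4688, 5428 and 6642 CPM in marrow (-6.72 ± 0.46, adjusted p = 9.9e-06). Camp and Ngp, the cathelicidin and the neutrophilic granule protein, had log2 fold changes of -6.46 ± 0.55 and -6.18 ± 0.33. S100a8, a calprotectin chain, had 71.4 to 160 CPM against 9755, 7913 and 9112 CPM (-6.32 ± 0.26, adjusted p = 2.3e-07). These transcripts were low but above the level that a count of 0 allows, 0.0904 to 0.143 CPM in precursor libraries. The summed TPM of the secondary granule list was 1340 to 4926 in precursors and 22061 to 27946 in marrow, and that of mature neutrophil genes 419 to 1199 against 27698 to 32867.

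Erythroid genes fell most. All 23 tested (Ahsp was not in the table) were lower, and in each all precursor libraries lay below all marrow libraries (median -8.11). A gene that passed the filter on low counts through marrow alone had to differ, so the counts of these residual lineages describe which transcripts were depleted and are not read as support. Alas2, the first enzyme of haem synthesis in red cells, had 1.28 to 67.0 CPM (median 10.1) against 3762, 2608 and 5053 CPM (-8.61 ± 0.90, adjusted p = 0.00013). Slc4a1, the band 3 anion exchanger, had 2.27 to 84.3 CPM against 9386, 1226 and 3132 CPM (-6.86 ± 0.54). Combined 3 was highest in Alas2, and its summed erythroid TPM of 10089 stood above the next precursor library at 3522, while marrow held 290468 to 407837. All 23 were also lower without combined 3, but that library enters only the spread, so its omission could hardly move the fold changes.

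B lineage genes were lower for 21 of 22 tested (median -5.59), with Cd22 not called. Cd79a, which encodes a signal chain of the B cell receptor, had 0.691 to 3.31 CPM in precursors and 273, 245 and 294 CPM in marrow, a log2 fold change of -6.98 ± 0.42. T and NK genes were lower for 23 of 24 tested (median -5.28), and for 17 without the G-CSF marrow library. Over all genes that omission left 2947 of 18071 tested lower, against 4268 of 18344 with all libraries. Basophil, mast cell and eosinophil genes were lower for all 19 tested (median -4.33). Prg2, the eosinophil major basic protein, had 2.37 to 47.3 CPM against 2704, 3862 and 3932 CPM (-8.74 ± 0.86), again with combined 3 highest. Megakaryocyte genes were lower for all 15 tested (median -5.23), and 12 were so without the G-CSF marrow library. Itga2b, the platelet integrin chain CD41, had 1.37 to 5.58 CPM against 37.2, 282 and 52.6 CPM (-5.23 ± 0.71, adjusted p = 0.00054), Pf4 (platelet factor 4) changed by -6.63 ± 1.03, and Gp1ba by -2.89 ± 0.52, a call lost without that library. Of 7 plasma cell genes tested 1 was higher and 5 were lower.

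Stroma and osteoblast genes were lower for 16 of 18 tested with all libraries (median -6.035) and 10 of 16 tested without the G-CSF marrow library. Over all genes the lower calls went from 4268 of 18344 to 2947 of 18071 by that omission. Col1a1, the main collagen of bone, had 0.633 to 6.13 CPM against 25.6, 38.2 and 80.6 CPM (-5.39 ± 0.66), and Lepr, the leptin receptor of niche stroma, had a call (-3.56 ± 1.24, adjusted p = 0.042) lost without 7 of the 11 libraries taken 1 at a time. Endothelial genes were lower for 12 of 15 and, without that library, for 6. Their summed TPM nevertheless overlapped, at 32.6 to 70.2 in precursors and 37.6, 135 and 36.9 in marrow. Cdh5 and Kdr, which encode VE-cadherin and a VEGF receptor, had 0.0329 to 0.484 CPM and 0 to 0.204 CPM in precursors against 5.50, 8.79 and 5.35 CPM and 2.96, 6.54 and 3.28 CPM. Skeletal muscle genes were lower for 4 of 8 tested, and for 1 of 4 without that library. Among the defining markers of other lineages that the table holds, Calcr, an osteoclast gene, was at 0 in all 8 precursor libraries, and it was at 0 in all 3 marrow libraries too.

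**Figure D4:**
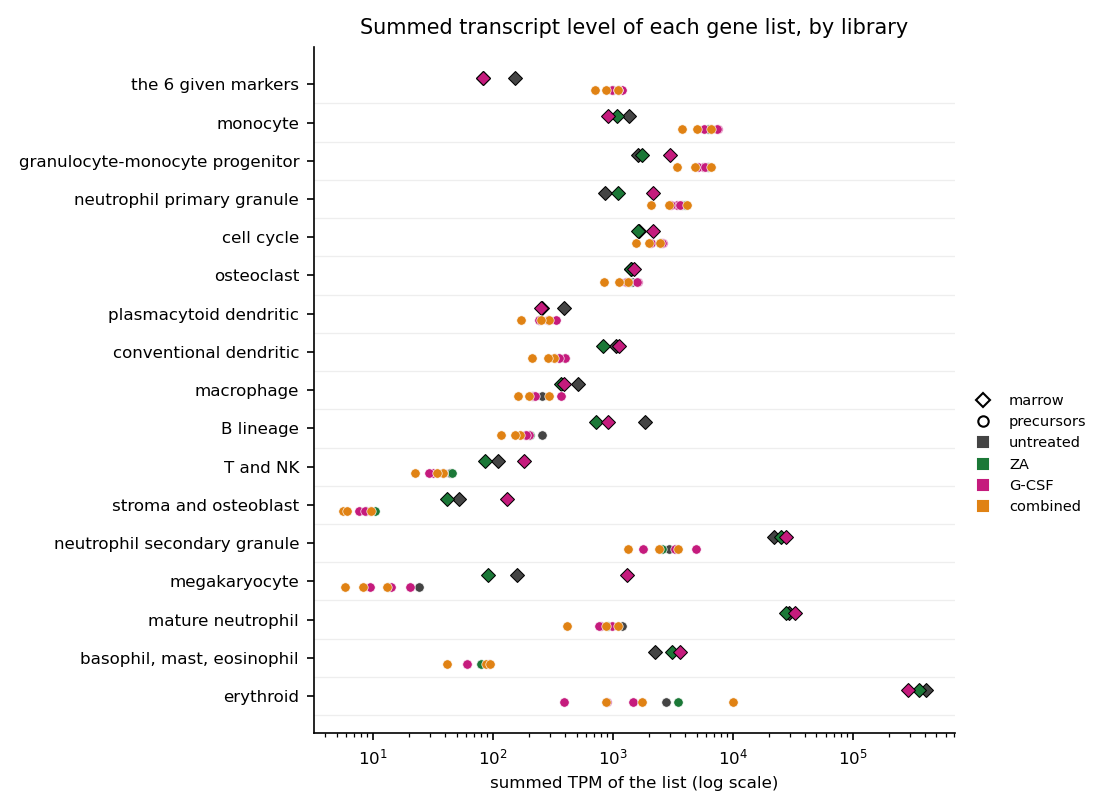
Summed TPM of each gene list (horizontal axis, log scale) in each run 1 library; diamonds are marrow and circles precursor libraries, coloured by treatment. Precursor libraries lie above marrow for the marker and monocyte lists, overlap it for the osteoclast, cell cycle and plasmacytoid dendritic lists, and lie far below it for the erythroid and mature neutrophil lists, where the highest erythroid circle is combined 3 at 10089.

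Dendritic genes were mixed. Of 18 conventional dendritic genes 6 were higher and 8 lower (median -0.86, or 0.04 on log2(TPM + 1)), and of 18 plasmacytoid genes 3 were higher and 9 lower (median -1.48). Clec9a, a receptor of dendritic progenitors and type 1 dendritic cells, had 16.2 to 27.9 CPM (median 18.9) against 3.38, 3.83 and 4.31 CPM (2.38 ± 0.21, adjusted p = 1.7e-05). Naaa, an acid amidase, had 175 to 210 CPM against 52.2, 40.4 and 46.2 CPM (2.05 ± 0.12, adjusted p = 1.4e-06). Cd209a, the lectin of monocyte-derived dendritic cells, rose by 1.95 ± 0.35 and Itgax (CD11c) by 1.62 ± 0.31. All 4 lay above marrow in all precursor libraries. Other genes of the list were lower. The class II chain H2-Aa, for antigen presentation, had 22.0 to 39.0 CPM (median 30.8) against 232, 274 and 156 CPM (-2.73 ± 0.18, adjusted p = 2.8e-06) and Cd74, the invariant chain, 84.9 to 141 CPM against 727, 478 and 559 CPM (-2.21 ± 0.14, adjusted p = 2.4e-06). B cells carry class II as well; the summed TPM of the B lineage list was 117 to 258 in precursors and 1847, 912 and 722 in marrow, and its part in these falls was not tested. Another class II chain, H2-Eb1, was not called over all libraries. Of the plasmacytoid genes, Siglech and Ccr9, both surface receptors of that cell, were lower (-1.72 ± 0.32 and -4.23 ± 0.54). Tcf4, the factor of that fate, rose by 0.79 ± 0.26 (adjusted p = 0.032) with overlapping groups, and lost its call without any of 5 libraries taken 1 at a time.

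Genes of resident macrophages were lower: 15 of 20, with 2 higher and 3 not called (median -3.80). C1qa, a chain of complement C1q, had 0.0842 to 1.39 CPM (median 0.380) in precursors and 76.5, 78.7 and 72.0 CPM in marrow (-7.13 ± 0.72, adjusted p = 7.6e-05). Vcam1, the adhesion molecule of marrow macrophages and stroma, had 0.921 to 4.63 CPM against 174, 241 and 153 CPM (-6.25 ± 0.52). Timd4, a receptor for dying cells, had 1 count in all precursor libraries together and a marrow to precursor ratio of 1274 (95% exact Poisson interval 229 to 50316). Adgre1, which encodes F4/80, was not called, with 40.6 to 64.2 CPM against 71.2, 42.2 and 63.9 CPM. The 2 higher genes were Cd68, a lysosomal protein of phagocytes (0.80 ± 0.18), and Trem2 (2.29 ± 0.27), which also stands in the osteoclast list. The summed TPM of the macrophage list was 163 to 373 in precursors and 512, 396 and 373 in marrow.

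Of 22 osteoclast genes tested, 10 were higher, 7 lower and 5 not called (median 0.26). Calcr, Dcstamp, Oscar and Siglec15 had too few counts to be tested. Those that rose included the receptors Csf1r, Tnfrsf11a and Trem2 and the lysosome and acid pump genes Tcirg1, Clcn7 and Ostm1. Trem2, a receptor of the precursor, had 30.2 to 37.9 CPM (median 33.9) against 13.5, 4.21 and 7.77 CPM. Tcirg1, a subunit of the proton pump, had 289 to 366 CPM (median 335) against 85.2, 83.2 and 132 CPM (1.85 ± 0.13, adjusted p = 5.5e-06). Clcn7, the chloride channel that works beside that pump, rose by 1.21 ± 0.19 and Mitf, a factor of osteoclast and melanocyte genes, by 1.61 ± 0.21. Among those that fell were enzymes of the resorbing cell: Ctsk, the collagen-degrading cathepsin K, had 0 to 0.317 CPM (median 0.167) against 4.02, 23.1 and 4.31 CPM (-5.62 ± 0.65, adjusted p = 0.00011), and Acp5, the tartrate-resistant acid phosphatase, 4.24 to 8.07 CPM against 72.5, 73.0 and 94.0 CPM (-3.86 ± 0.20, adjusted p = 8.8e-07). Nfatc1, the factor that RANK signalling induces, overlapped between the groups with 57.7 to 64.8 CPM against 69.8, 48.5 and 49.0 CPM (0.20 ± 0.11, adjusted p = 0.17). Without the G-CSF marrow library 7 were higher and 7 lower, while the higher calls over all genes went from 3933 to 2968.

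Cell cycle genes depended on the scale. Of 28 genes 1 was higher and 17 lower by normalised CPM (median -0.38). On log2(TPM + 1) 9 were higher and 1 lower (median 0.49), beside 8873 higher, 2172 lower and a median of 0.47 over all 18344 genes. Of the 28 genes, 18 changed sign. Mki67, which encodes Ki-67 of dividing cells, had 717 to 880 CPM (median 839) against 1599, 1077 and 1042 CPM (-0.56 ± 0.11, adjusted p = 0.0026), with the opposite sign by TPM. Aurkb, the mitotic kinase, was higher on both scales (169 to 217 CPM against 156, 101 and 123; 0.69 ± 0.13, adjusted p = 0.0017), and Ccne1, the cyclin of S phase entry, was lower on both (32.5 to 44.7 CPM against 96.2, 113 and 98.0; -1.48 ± 0.09, adjusted p = 2e-06). Of 16 immediate early and stress genes, which respond to handling of cells, 3 were higher and 8 lower (median -0.52). Jund, an AP-1 subunit, had 8.63 to 13.3 CPM against 165, 130 and 214 CPM (-3.89 ± 0.20, adjusted p = 9e-07), and the phosphatase gene Dusp1 changed by -4.13 ± 0.39. The chaperone gene Hspa8 (1.08 ± 0.23) and the nuclear receptor gene Nr4a1 (1.35 ± 0.33, lost without the G-CSF marrow library) were higher. On log2(TPM + 1) 6 genes of that list were higher and 5 lower, with a median of 0.09.

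Outside the lists, the 12 largest rises among protein-coding genes at 10 CPM or more were Gria3, Il31ra, Vasn, Nr4a2, BC049715, Met, Dnah2, Stxbp6, Rem1, Cyp2ab1, Plppr3 and Mx1, with log2 fold changes from 3.52 to 4.72. They were chosen for size, so their fold changes are given as a description. Gria3 (ENSMUSG00000001986, chromosome X, 41400854 to 41678601, plus strand), a glutamate receptor subunit best known from neurons, had 202 to 311 CPM (median 240) in precursors and 11.8, 8.34 and 8.63 CPM in marrow. It was the largest rise, 4.72 ± 0.20, and was as large without G-CSF (4.69) as under it (4.77). Il31ra (ENSMUSG00000050377, chromosome 13, 112519898 to 112594360, minus strand), a cytokine receptor of the gp130 family, had 18.4 to 23.3 CPM (median 22.5) against 1.27, 0.526 and 1.03 CPM. Met, the receptor of hepatocyte growth factor, had 114 to 197 CPM (median 156) against 17.3, 5.34 and 9.32 CPM. Vasn, a membrane protein that binds TGF-beta, had 18.4 to 35.3 CPM against 2.96, 0.601 and 0.518 CPM, and Plppr3, a phospholipid phosphatase-related membrane protein, 120 to 194 CPM against 8.88, 12.0 and 15.9 CPM. Nr4a2, an orphan nuclear receptor, was carried in part by ZA 3, with 69.3 CPM there against a median of 5.82. Its log2 fold change was 5.54 without G-CSF and 2.66 under it, where it was not called (adjusted p = 0.114).

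The 12 largest falls were of Nrip3, Hbq1a, Nhlrc4, BC100530, Mmp13, Agtr1a, Retnlg, Epx, Prg2, Aldh1a1, Alas2 and Epdr1. They include the theta globin Hbq1a, whose 13 precursor counts all came from combined 3, the eosinophil peroxidase Epx and the neutrophil resistin-like gene Retnlg (0.591 to 17.0 CPM against 1237, 1442 and 1674). Nrip3 and Nhlrc4 had 3 counts each over the 8 precursor libraries. The marrow to precursor ratio was 1469 for Nrip3 (95% exact Poisson interval 503 to 7125) and 2194 for Nhlrc4 (751 to 10639). BC100530 was detected in 1 precursor library, ZA 3, and had 3.81 CPM in untreated, 42.5 CPM in G-CSF and 1.90 CPM in ZA marrow; its log2 fold change of -9.86 was -6.17 without the G-CSF marrow library, and the call was lost (adjusted p = 0.0561). The most abundant precursor transcripts by TPM among the genes ranked were Actb (median 12577), Eef1a1 and Lyz2, the lysozyme of monocytes and macrophages. Lyz2 itself was not called against marrow (-0.35 ± 0.14, adjusted p = 0.064), with 4476 to 6864 CPM against 7272, 6171 and 6907 CPM.

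Because 1 of the 3 marrow libraries came from G-CSF mice, the difference was also read apart from it. Without G-CSF 2968 genes were higher and 3038 lower (16.2 and 16.6%), and under G-CSF 3158 were higher and 3674 lower (17.2 and 20.0%). Higher in both were 10.7% of genes and lower in both 12.5%, and 0.262% were called in opposite directions. Of the 8201 genes called over all libraries 99.7% had the same sign in both. Those calls pool the 2 readings, so the selection itself favours a shared sign, and the share is no separate check. The difference between the 2 readings passed the test for 241 genes upward (1.31%) and 121 downward (0.660%), against 3069 at an unadjusted p under 0.05. Under G-CSF it rests on 1 marrow library, whose spread is taken from the other groups. The counts without G-CSF rest on few libraries too, and fell to 1774 higher and 1810 lower without the ZA marrow library and to 1747 and 1865 without the ZA precursor library. The number of genes with a called difference was 571 and 552 without those, and 158 to 216 without untreated marrow, untreated precursors, combined 2 or any 1 of the G-CSF precursor libraries.

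**Figure D5:**
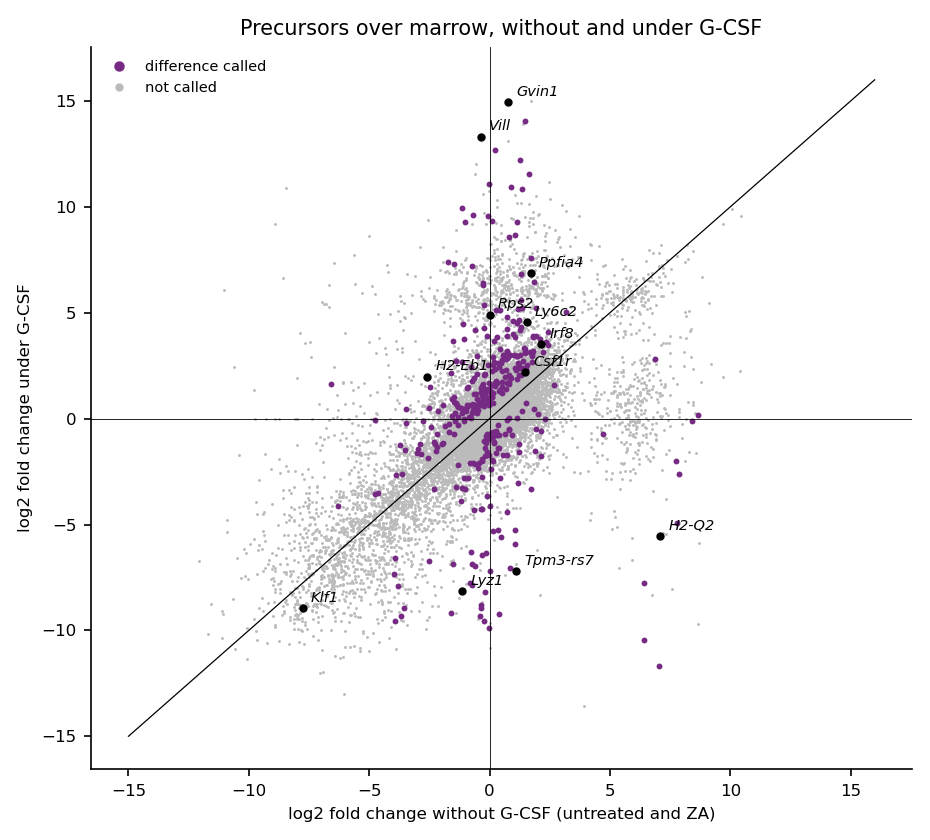
Log2 fold change of precursors over marrow without G-CSF (horizontal axis) and under G-CSF (vertical axis) for 18344 genes, 1 point a gene. Purple points are the genes whose difference passed the test (241 upward and 121 downward); fitted values of genes at 0 in a group, such as Gvin1, depend on the prior count and are no measure of size.

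The largest of these differences lay in the G-CSF marrow library and not in the precursors. Ppfia4, a liprin scaffold gene, had 88.8 to 109 CPM (median 102) in precursors and 34.9, 0.902 and 26.9 CPM in untreated, G-CSF and ZA marrow. It was 1.71 log2 units higher without G-CSF and 6.87 under it (difference 5.16 ± 0.23, adjusted p = 2.3e-05). Gvin1, an interferon-induced GTPase, had 116 to 175 CPM in precursors against 127, 0 and 71.4 CPM, and Vill, a villin-like gene, 33.6 to 67.1 CPM against 47.8, 0 and 72.7 CPM. Rps2, a ribosomal protein gene with many near-identical copies, had 1157 to 1362 CPM in precursors of every treatment and 1078, 42.2 and 1536 CPM in marrow. Precursors of G-CSF mice thus held these 4 transcripts at the level of the other precursors. In the other direction, Lyz1, a lysozyme close in sequence to Lyz2, had 2.85 to 4.97 CPM in precursors and 6.13, 1222 and 7.94 CPM in marrow (difference -6.99 ± 0.30, adjusted p = 2.3e-05). Tpm3-rs7, a tropomyosin 3 related sequence, had 2.10 to 5.26 CPM against 0.634, 645 and 3.11 CPM, and the class I gene H2-Q2 0.444 to 0.842 CPM against 0, 31.0 and 0 CPM. The class II gene H2-Eb1 had 17.4 to 30.4 CPM in precursors and 207, 5.79 and 128 CPM in marrow, so that it was lower in precursors without G-CSF (-2.60) and higher under it (1.98; difference 4.58 ± 0.37, adjusted p = 0.00064), and unlike H2-Aa it was not called over all libraries. Several of these genes have near-identical relatives, so their values are uncertain. Reads from overlapping or antisense genes cannot be told apart either, since strand is not stated.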

How the data were processed

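RNA from sorted precursors and whole marrow was sequenced on an Illumina HiSeq after an NEB Ultra kit, per the labels. The build mm10, DESeq2 1.16.1 and Salmon without a version are named in the submitters' processing notes. The authors deposited estimated counts, which equal TPM times a length per gene and a factor per library for all 13494 genes above 0 throughout (within a CV of 0.001), so they carry no scaling between libraries. The authors also deposited TPM. Of 46679 identifiers 99.0% matched GENCODE vM21 (GRCm38).

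Counts were rounded and tested in R 4.3.3 with edgeR 4.0.16 (filterByExpr with minimum count 10 and minimum total 15, TMM, robust quasi-likelihood fit, treatment and cell terms), and a second fit held a cell by G-CSF term. Adjusted p-values are Benjamini-Hochberg values of that test. The script was tested on simulated counts. Alternatives used DESeq2 1.42.0 and limma 3.58.1. The run 1 marrow columns are the same libraries as 3 of the whole-marrow table (Spearman 0.9996) and were counted once. Genes named outside the lists are protein-coding, average 10 CPM or more in the higher group, have groups that do not overlap and the same sign without and under G-CSF; 12 were taken in each direction, 6 in each for the difference with G-CSF. A count of 0 allows 3 counts, which is 0.186 to 0.439 CPM in marrow. Some list members are counted but not reported here by name. The comparison and its gene lists were chosen with earlier results of these data known.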

Additional observations from a re-analysis of the deposited data

Results flagged for a closer look

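Within the 8 precursor libraries 162 sets of values were looked at, and in 33 of them 1 library lay far from the others. The rule allows about 1 in 20 for independent, normally spread values. The sets are untransformed levels, some with very few counts, and many are genes of related cells, so the 33 are not read as an excess. Combined 3 was the highest in the summed erythroid TPM (10090), the globin share of TPM (0.999%) and the CPM of Acp5 (8.07), Agtr1a (0.742), Alas2 (67.0), Aldh1a1 (2.87), Camp (106), Epx (6.197), Hbq1a (0.420), Klf1 (3.65), Ly6g (5.39), Mmp9 (15.5), Myct1 (0.613), Prg2 (47.3) and Retnlg (17.0), and it was the lowest in Il3ra (43.4). Genes of red cells, neutrophils and eosinophils that were lower in precursors make up most of these. The calls of all 23 erythroid genes were also made without that library, which enters only the spread of the test. ZA 3 was highest in BC100530 (0.0680), Lepr (3.47), Nr4a2 (69.3) and Pax5 (32.1) and lowest in Aurkb (169). G-CSF precursor 1 was highest in Adgre1 (64.2), Fn1 (1528) and Il6ra (366) and lowest in Cd34 (113). The untreated precursor was highest in Cebpe (11.3), Dnah2 (32.4), Itga2b (5.58), Nhlrc4 (0.0753) and Timd4 (0.0377), G-CSF precursor 2 in Dusp1 (3.71) and Mmp13 (0.0952), and combined 2 in Siglech (11.3).

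Each difference with G-CSF rests on 1 G-CSF marrow library, and over all genes 1.31% were called upward and 0.660% downward. Of the genes named, 6 in each direction were taken for having the largest such difference, so their count is no separate result. The log2 difference between precursors and marrow differed with G-CSF, by the test of that difference, for 23 named genes. It was larger under G-CSF for Gvin1 (14.18), Vill (13.69), Ppfia4 (5.16), Rps2 (4.90), Nckipsd (4.85), Trim12a (4.82), H2-Eb1 (4.58), Ly6c2 (3.01), Cd300e (2.92), Cx3cr1 (2.08), Stxbp6 (1.84), S100a4 (1.32) and Cd68 (0.90). It was smaller, or lay lower, for H2-Q2 (-12.62), Tpm3-rs7 (-8.29), Lyz1 (-6.99), Btnl2 (-6.09), Col6a2 (-5.66), Tnc (-5.61), Ly6c1 (-4.11), Dnah2 (-4.07), Prtn3 (-1.13) and Ctsg (-1.02). The values of Gvin1, Vill and H2-Q2 depend on the prior count, because marrow libraries were at 0.

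Outside the run 1 comparison, 2 run 2 libraries labelled marrow held Csf1r at 71.9 TPM (labelled untreated 2) and 56.8 TPM (labelled G-CSF 2), above the 9.05 to 13.4 TPM of run 1 marrow. The run 1 library most like them was the precursor library of the same treatment and number (Pearson's r 0.964 and 0.975). In turn, the run 2 libraries labelled untreated precursor 2 and G-CSF precursor 2 were most like run 1 marrow of the same treatment and number (0.928 and 0.9465). All labels were left as given.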

How the results depend on the processing

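The number of genes higher and lower in precursors (3933 and 4268) became 792 and 2046 when edgeR tested against a log2 fold change of 1, 9165 and 2152 with limma on log2(TPM + 0.1), 8873 and 2172 on log2(TPM + 1), and 1164 and 2064 with a replicate block by sample. With run 2 libraries, or with only the run 2 precursor samples not in run 1, it was 0 and 0 by edgeR (220 and 142 genes at an unadjusted p under 0.05), and of 121 named genes called in run 1 the sign was opposite for 118 and 81. In those 2 settings the log2 fold change was -0.34 and -0.04 for Csf1r, -0.45 and -0.03 for Ccr2, -0.66 and -0.28 for Irf8, -0.60 and -0.01 for F13a1, -0.75 and -0.26 for Cd34, and -0.35 and -0.10 for Flt3. Run 2 libraries labelled marrow that resemble precursors enter both settings. So do run 2 libraries labelled precursors that resemble marrow, such as untreated 7, ZA 5 and ZA 7. The cause was not tested.

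Without G-CSF, the counts were 8864 higher and 1700 lower on log2(TPM + 0.1), 8492 and 1775 on log2(TPM + 1), 0 and 0 in run 2, and 1171 higher when untreated and ZA libraries were fitted alone. Under G-CSF 1900 and 2012 were lower on the 2 TPM scales. The called differences with G-CSF numbered 1309 by DESeq2, 555 on log2(TPM + 1), 127 with the replicate block by number and 0 in run 2. Leaving out 1 library at a time gave 2968 to 3869 higher and 2947 to 4251 lower in all, 1747 to 2860 and 1810 to 3118 without G-CSF, 2604 to 3533 and 2997 to 3869 under G-CSF, and 158 to 571 differences; the values under G-CSF have no estimate without the G-CSF marrow library.

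The replicate block by number gave 2652 higher and 2972 lower. Same-numbered combined and G-CSF precursor libraries did not deviate together (r -0.035, -0.042 and -0.052, other pairs 0.003 to 0.037). They come from differently treated mice, so these values cannot tell whether a number marks a shared animal. The G-CSF marrow library, numbered 2, gave r of -0.044 with G-CSF precursor 2 and of -0.013 and 0.062 with 1 and 3. Its deviation was taken from the mean of untreated, G-CSF and ZA marrow and holds the treatment, so it cannot decide the pairing either. Untreated marrow and precursors have 1 library each, so their pair could not be examined in this way. The numbers were not taken as pairs because the labels do not say that they mark a shared animal. With the block by sample, 29 single-gene values lost the call, among them Aurkb (adjusted p = 0.112), Cd300e (0.154), Cd68 (0.0662), BC049715 (0.215), Cx3cr1 (0.228) and Ly6c2 (0.316). Of 2938 single-gene values under other settings of run 1, 2722 kept their direction and their side of the threshold, 168 lost the call, 29 gained one and 19 turned sign. On log2(TPM + 0.1) and log2(TPM + 1) the turned values were 0.59 and 0.53 for Adgre1, 0.03 and 0.03 for Fcgr4, 0.21 and 0.07 for H2-Eb1, 0.52 and 0.52 for Lyz2, 0.31 and 0.30 for Mki67 and 0.58 and 0.56 for Ptprc. Elane ranged from -0.09 (without untreated marrow or the untreated precursor) to 0.42 when 1 library was left out. Kit was at -0.02 by DESeq2 and by RLE, -0.09 without the treatment term, -0.14 with the replicate block by number and -0.08 without G-CSF marrow. Having 3 marrow libraries against deeper precursor libraries limits what can be read of low genes.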
